A study of Rattus norvegicus with 18 samples.

Results

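The early response to membrane depolarization was measured in cultured rat hippocampal neurons in which the transcription factors MEF2A and MEF2D had been reduced by RNA interference. The comparison rested on 6 of the 18 arrays of the series: the 3 arrays titled for MEF2 RNAi with 1 h of KCl, and the 3 titled for MEF2 RNAi with 0 h of KCl, which carry the same biological replicate numbers. Per the labels' protocols, all cells came from dissociated hippocampal cultures. Lentivirus delivered shRNAs against MEF2A and MEF2D (the MEF2 RNAi arm) or control shRNAs (the Control arm) on day 3 in vitro. On day 10 every culture received AP5, an antagonist of NMDA receptors, together with the sodium channel blocker TTX for 1 h, and KCl at 55 mM was then applied for 1 h or, in the 0 h groups, not at all. The 0 h neurons of both arms were therefore silenced neurons and not freely firing ones. The 6 Control arrays at 1 h and 0 h served as the matched response with control shRNAs, and the 3 MEF2 RNAi arrays at 6 h gave a later time. Each group held 3 arrays, and nothing in the labels describes the cultures behind a replicate number further, so p-values measure the spread between these arrays.

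Raised extracellular KCl depolarizes neurons and opens L-type voltage-gated calcium channels. The calcium that enters drives kinases and phosphatases that act on transcription factors already present in the nucleus, among them CREB, SRF with its ternary complex partners, and the MEF2 proteins. Their first targets, the immediate early genes, need no new protein synthesis for their transcription and encode mostly transcription factors, feedback inhibitors and a few proteins that act at synapses. MEF2 proteins bind DNA as dimers, repress with class IIa histone deacetylases in quiet neurons, and activate after calcium-dependent dephosphorylation. In hippocampal neurons they are known for limiting the number of excitatory synapses.

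The targeted genes were read first, as a check of the labels. Mef2a had signals of 577, 593 and 549 in MEF2 RNAi neurons at 1 h and of 595, 620.1 and 596 at 0 h, against 2331, 2121 and 2051 in Control neurons at 1 h and 2001, 1799.6 and 1739 at 0 h. Every RNAi array lay below every Control array, and Mef2a was 3.78-fold lower in RNAi neurons at 1 h (log2 -1.92, adjusted p = 2.12e-08) and 3.05-fold lower at 0 h (log2 -1.61, adjusted p = 1.17e-07). Mef2d had signals of 303, 339 and 295 in RNAi neurons at 1 h and 264, 266 and 298 at 0 h, against 409.6, 425 and 417 in Control neurons at 1 h and 380.2, 423 and 387 at 0 h. Its arms did not overlap at either time either, but the distance was smaller, 1.34-fold at 1 h (adjusted p = 0.00138) and 1.44-fold at 0 h (adjusted p = 2.83e-04). Both probe sets stayed well above the floor of the signal scale on every RNAi array. KCl itself moved neither gene past the threshold within the RNAi arm, with log2 changes of -0.08 for Mef2a (adjusted p = 0.761) and 0.18 for Mef2d (adjusted p = 0.273), and Mef2c, which the shRNAs do not target, had -0.11 (adjusted p = 0.732).

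The arrays were of similar overall brightness, with medians of 240.6 to 248.02 on the 6 arrays compared, and the number of arrays limits the precision of each value. Signals are array intensities on a linear scale as deposited. They compare 1 probe set between arrays and say nothing of one gene's level against another's. A gene was called where limma's adjusted p, over 10933 genes tested, was under 0.05. Changes are log2 of 1 h over 0 h with the standard error (SE) of the fit, from 3 arrays in each group.

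Depolarization for 1 h changed 424 genes in MEF2 RNAi neurons, the immediate early transcription factors most of all. Of the genes tested, 135 were higher at 1 h, 1.23% of them, and 289 were lower, 2.64%. The rises were the larger changes. By the fitted values, 42 of the genes called higher rose at least 2-fold, 21 had a log2 change of 2 or more and 3 of 4 or more, with a median of 0.69. Of the genes called lower, 10 fell at least 2-fold and the median was -0.41, beside -0.04 for all genes tested. For all 135 genes called higher and all 289 called lower, the 3 arrays at 1 h lay entirely on one side of the 3 arrays at 0 h, and all 3 replicate pairs had the same direction. Arrays of the groups did not overlap in 522 genes that were higher (4.77%) and in 1990 that were lower (18.2%) in all, so that lack of overlap alone was common. The table holds no detection calls. For 6 of the genes called higher the 3 arrays at 0 h, and for 18 of those called lower the 3 arrays at 1 h, lay under the 40th percentile of their arrays (154 to 163 at 0 h). Such genes entered the test through brighter arrays and their dim level is uncertain, so for those named a bound against that percentile is given.

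Arrays with the same replicate number deviated together, and with the replicate number as a block limma called 216 genes higher (1.98%) and 688 lower (6.29%), which included all 424 called without it. The counts also moved with single arrays. Without RNAi 1 h replicate 2, 85 genes were called higher and 145 lower, and without RNAi 1 h replicate 3, 84 and 136. Without RNAi 0 h replicate 2, 171 were called lower, and without RNAi 0 h replicate 3, 150. Quantile normalization, which forces the arrays onto one distribution, gave 164 higher and 207 lower, so that 44.2% of the calls were rises, against 31.8% on the values as deposited. Among the arrays at 1 h, RNAi replicate 1 was the lowest of the 3 for 116 of the 135 genes called higher, against 41.8% of all genes tested. The median log2 change of the genes called higher was 0.58 in the pair numbered 1, 0.74 in pair 2 and 0.69 in pair 3. Without RNAi 1 h replicate 1, limma called 141 genes higher and 197 lower.

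**Figure D1:**
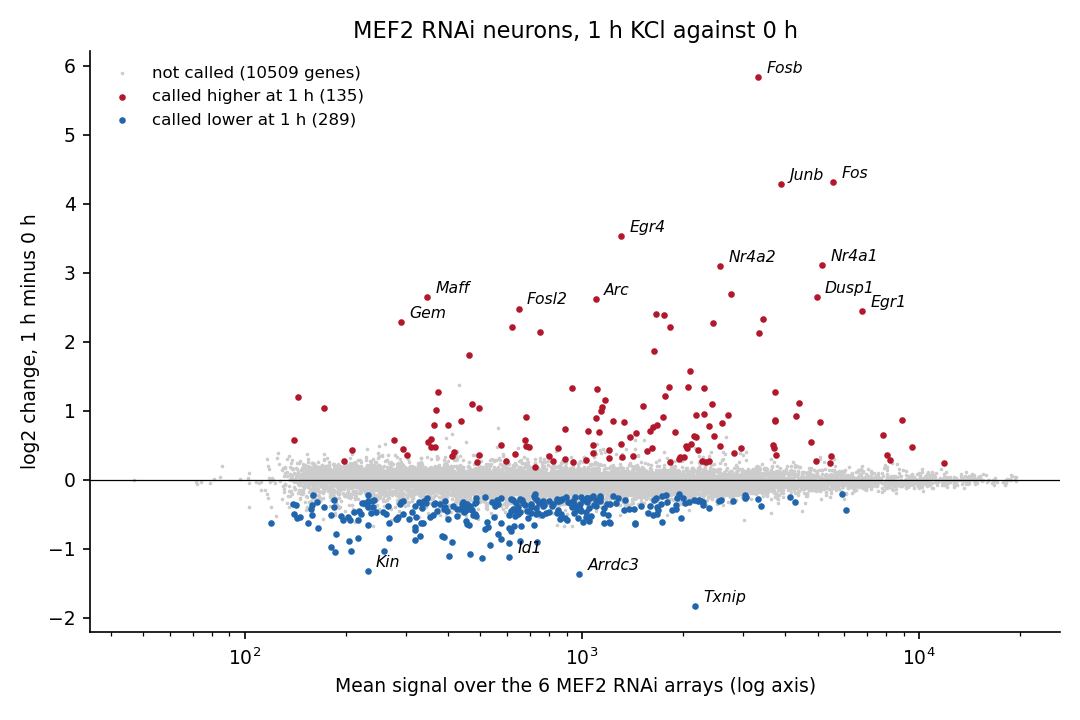
Each point is 1 of 10933 genes, with its mean signal over the 6 MEF2 RNAi arrays on the x axis (log axis) and its log2 change at 1 h against 0 h of KCl on the y axis. The 135 genes called higher (red) reach a fitted 5.84 with Fosb, while the 289 called lower (blue) reach -1.83 with Txnip and mostly lie between 0 and -1.

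The labelled cell type was checked against marker genes, and markers of neurons and of astrocytes lay above the floor on all 6 arrays. Summed signals of the 12 neuron markers ranged from 71048 to 81429 at 1 h and from 71533 to 79828 at 0 h, and none was called. The 9 astrocyte markers summed to 52017 to 61763 at 1 h and 51803 to 62194 at 0 h, with none called. The 9 oligodendrocyte lineage markers on the array (6 tested) summed to 11352 to 17181 at 1 h and 11065 to 17257 at 0 h, with none called. Mog, of myelin, lay at the floor on all 6 arrays, while Olig1, Cnp and Pdgfra had mean signals of 8244, 2828 and 2086 at 1 h. The 10 endothelial and fibroblast markers (7 tested) summed to 2159 to 2539.8 at 1 h and 2382 to 2609 at 0 h, again with none called. Pecam1, of endothelium, lay at the floor on all 6 arrays, while Dcn, of fibroblasts, had a mean of 999 at 1 h. The 9 microglia markers summed to 1708 to 1863 at 1 h and 1641 to 1814 at 0 h, with 1 of 7 tested called, Cd68 at 0.27 (adjusted p = 0.0423, range over its alternatives 0.00685 to 0.198, not called without any one of 5 of the 6 RNAi arrays), and Ptprc at the floor. Proliferating cell markers summed to 14120.0 to 18112 at 1 h and 12546 to 14584 at 0 h, with a median change of 0.31 and none called of 8. With 1.23% of all genes tested called higher and 2.64% lower, marker lists this short often hold few calls or none. The part of these other cells in the results was not tested. In bulk RNA, fewer cells of a type and less RNA per cell cannot be told apart.

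Windows before the annotated starts of the genes that rose most are shown before their values, since calcium-regulated factors are known to act at promoters. Whether each annotated start is the one used in these neurons was not tested, so a window need not hold the active promoter. The 8 largest rises with an entry in the RefSeq promoter table (assembly GRCr8) are given in the order of their rise, each as the 250 bases before the annotated gene start on the gene's own strand, 5′ to 3′. Fos and Arc are not shown. Capitals mark matches, on either strand, to the cyclic AMP response element (CRE) TGACGTCA, its core TGACG, the AP-1 site TGANTCA, the EGR site GCGNGGGCG, the TATA box TATAAA, the CArG box bound by SRF, or the MEF2 site. The core lies within the full CRE, so a full CRE also counts as a core on each strand.
Fosb (chr1:88089185-88089434, minus strand): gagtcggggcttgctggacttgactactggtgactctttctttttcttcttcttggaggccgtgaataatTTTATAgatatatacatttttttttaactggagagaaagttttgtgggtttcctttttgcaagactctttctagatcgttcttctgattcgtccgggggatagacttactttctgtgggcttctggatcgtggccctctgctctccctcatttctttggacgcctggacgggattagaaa
Junb (chr19:40080876-40081125, plus strand): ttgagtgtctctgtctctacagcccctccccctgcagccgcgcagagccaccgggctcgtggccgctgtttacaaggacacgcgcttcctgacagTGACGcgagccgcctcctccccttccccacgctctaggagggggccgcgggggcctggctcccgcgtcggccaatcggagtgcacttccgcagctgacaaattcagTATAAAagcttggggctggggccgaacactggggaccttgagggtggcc
Egr4 (chr4:119607818-119608067, minus strand): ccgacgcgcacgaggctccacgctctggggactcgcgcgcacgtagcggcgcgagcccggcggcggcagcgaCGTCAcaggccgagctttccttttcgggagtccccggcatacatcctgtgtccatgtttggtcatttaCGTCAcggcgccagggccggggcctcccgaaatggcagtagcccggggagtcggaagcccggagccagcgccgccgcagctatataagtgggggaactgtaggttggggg
Nr4a1 (chr7:134259888-134260137, plus strand): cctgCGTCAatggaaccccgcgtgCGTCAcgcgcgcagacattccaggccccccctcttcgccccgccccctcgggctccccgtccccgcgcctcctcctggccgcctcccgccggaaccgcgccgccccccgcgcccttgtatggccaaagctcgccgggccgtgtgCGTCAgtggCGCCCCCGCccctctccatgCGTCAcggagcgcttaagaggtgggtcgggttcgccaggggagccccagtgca
Nr4a2 (chr3:62104888-62105137, minus strand): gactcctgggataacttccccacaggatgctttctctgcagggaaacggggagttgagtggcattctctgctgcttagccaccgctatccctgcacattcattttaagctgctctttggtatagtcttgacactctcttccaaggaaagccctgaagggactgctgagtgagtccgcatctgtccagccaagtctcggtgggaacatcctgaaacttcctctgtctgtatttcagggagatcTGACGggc
Klf4 (chr5:75078593-75078842, minus strand): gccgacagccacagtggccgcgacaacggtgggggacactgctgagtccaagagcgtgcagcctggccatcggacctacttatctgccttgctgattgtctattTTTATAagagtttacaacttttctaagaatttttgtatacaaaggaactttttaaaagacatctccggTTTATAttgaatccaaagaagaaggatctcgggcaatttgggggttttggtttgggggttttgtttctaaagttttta
Maff (chr7:112792537-112792786, plus strand): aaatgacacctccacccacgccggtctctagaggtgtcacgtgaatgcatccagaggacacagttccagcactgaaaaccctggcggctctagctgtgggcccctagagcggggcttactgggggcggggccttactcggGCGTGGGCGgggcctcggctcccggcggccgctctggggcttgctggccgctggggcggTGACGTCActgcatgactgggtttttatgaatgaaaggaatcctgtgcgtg
Dusp1 (chr10:17184603-17184852, plus strand): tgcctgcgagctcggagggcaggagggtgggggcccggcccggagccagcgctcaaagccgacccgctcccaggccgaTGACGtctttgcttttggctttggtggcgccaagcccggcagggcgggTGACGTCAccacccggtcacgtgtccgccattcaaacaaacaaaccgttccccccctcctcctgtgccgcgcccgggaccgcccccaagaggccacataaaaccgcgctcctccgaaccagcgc

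A CRE core stood in 6 of these 8 windows, with 4 copies in Nr4a1, 3 in Dusp1 and 2 each in Egr4 and Maff. The full CRE stood in 2, at 124 bases before the start in Dusp1 and at 51 bases before it in Maff. An EGR site was found in 2 windows and a match to the TATA box in 3, while the AP-1 site, the CArG box and the MEF2 site had no match in any of the 8 windows. Junb held TATAAA on the gene's own strand, at -49 relative to the start. The TATA box matches in Fosb, at -180, and in Klf4 read TTTATA, so they lay on the opposite strand. Over the windows of the 109 genes called higher that matched the table (123 windows), 15.4% held a full CRE and 58.5% a core. The corresponding shares were 2.86% and 22.1% among the 280 windows of genes called lower, 2.92% and 27.5% among the 10305 windows of genes tested, and 1.59% and 18.2% among all 33469 windows of the table. CArG boxes stood in 4.88% of the windows of genes called higher, 1.79% of those of genes called lower, 1.38% of those of genes tested and 1.5% of all. TATA boxes stood in 13.0% of the windows of genes called higher, 3.93% of those of genes called lower, 6.52% of those of genes tested and 12.9% of all windows. EGR sites stood in 13.8%, 8.93%, 8.86% and 4.29% of the windows in that order of sets, and AP-1 sites in 4.07%, 3.57%, 4.45% and 6.34%. MEF2 sites stood in 0 of 123 windows of genes called higher, 1.43% of those of genes called lower, 1.44% of those of genes tested and 2.96% of all. These are letter matches in a window of fixed length before an annotated start. A match is not a bound site, and no match speaks only of these letters in this window.

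The AP-1 factors, which pair through leucine zippers and bind the AP-1 site, gave the 3 largest rises of the comparison. Fosb, a Fos family member, had signals of 6075, 6365 and 7235 at 1 h, against 137, 104 and 106 at 0 h. The 0 h signals lay under the 40th percentile, and against that percentile Fosb was at least 41.5-fold higher at 1 h (fitted log2 5.84, SE 0.19, adjusted p = 1.27e-11). Fos, the prototype of the immediate early genes, had 9975, 10762 and 11017 at 1 h and 751, 397 and 499.8 at 0 h, a 19.9-fold rise (log2 4.32, SE 0.35, adjusted p = 8.85e-07). Its 0 h arrays spread more widely than its 1 h arrays, and a second Fos probe set changed by 0.23. Junb, a Jun family member, had 6542, 7415 and 8298 at 1 h and 396, 324 and 425 at 0 h, a 19.5-fold rise with the smallest adjusted p of the comparison (log2 4.28, SE 0.11, adjusted p = 5.99e-13). Jun itself had 6163, 6247 and 7133 at 1 h and 3734, 3413 and 3758 at 0 h, a 1.79-fold rise (log2 0.84, adjusted p = 9.93e-05).

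Fosl2, which encodes FRA2, had 736, 1278 and 1303 at 1 h, against 186, 190.1 and 199 at 0 h. The 0 h arrays were tightly grouped and replicate 1 at 1 h lay well below the other two, and the rise was 5.58-fold (log2 2.48, SE 0.20, adjusted p = 8.85e-07). A second Fosl2 probe set rose by 1.29. Maff, a small MAF protein with no activation domain of its own, had 420.2, 664 and 722 at 1 h and 109, 92.8 and 80.6 at 0 h (fitted log2 2.65, SE 0.17, adjusted p = 9.27e-08), at least 3.72-fold higher against the 40th percentile, under which its 0 h signals lay. The stress-inducible repressor Atf3 had a log2 change of 1.34 (adjusted p = 7.53e-04) and the small MAF gene Mafk of 0.80 (adjusted p = 0.00191). Jund, the Jun family member known for steady expression, changed least of those called, by 0.28 (adjusted p = 0.0161). In all, 9 of the 11 AP-1 genes measured rose and none fell. Fosl1 at 0.20 and Batf3 at -0.09 were not called. The list's median log2 change was 1.34, beside -0.04 over all genes tested, where 1.23% were called higher.

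The Egr genes encode zinc-finger activators, and their products induce the Nab corepressors that bind back to them. Egr4 had signals of 2133, 2488 and 2579 in RNAi neurons at 1 h, against 242, 154 and 235 at 0 h, an 11.6-fold rise (log2 3.54, SE 0.17, adjusted p = 2.02e-09). Egr1 had 11766, 10890.1 and 11519.6 at 1 h and 2935, 1473 and 2107 at 0 h, and its 0 h arrays spread almost 2-fold (log2 2.45, SE 0.29, adjusted p = 8.74e-05). Egr2 had 1174, 1101 and 1400.3 at 1 h and 351, 218 and 274 at 0 h (log2 2.14, SE 0.24, adjusted p = 5.54e-05). The groups did not overlap for any of the 3 genes. Egr3 was not tested, since on none of the 18 arrays was its signal above the 40th percentile, with 114, 132 and 115 in RNAi neurons at 1 h and 109.6, 105 and 95.6 at 0 h. The corepressor genes Nab1 at 0.15 and Nab2 at 0.09 were not called, so 3 of the 5 Egr and Nab genes tested rose and none fell.

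All 3 Nr4a genes, which encode nuclear receptors that act without a bound ligand, rose. Nr4a1, also called Nur77, had 7332, 9310.4 and 11036 at 1 h, against 1268, 1054 and 881 at 0 h (log2 3.11, SE 0.24, adjusted p = 5.75e-07). Nr4a2, also called Nurr1, had 3156, 5181 and 5469 at 1 h and 373, 579.5 and 655 at 0 h (log2 3.10, SE 0.24, adjusted p = 6.44e-07), and replicate 1 was the lowest array at both times. The rises came to 8.62-fold for Nr4a1 and 8.58-fold for Nr4a2. Nr4a3 rose by 1.27 on its brightest probe set (adjusted p = 6.13e-04) and by 2.58 and 0.70 on the other two, each of them called. For Nr4a3 the size of the rise therefore depended on the probe set.

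**Figure D2:**
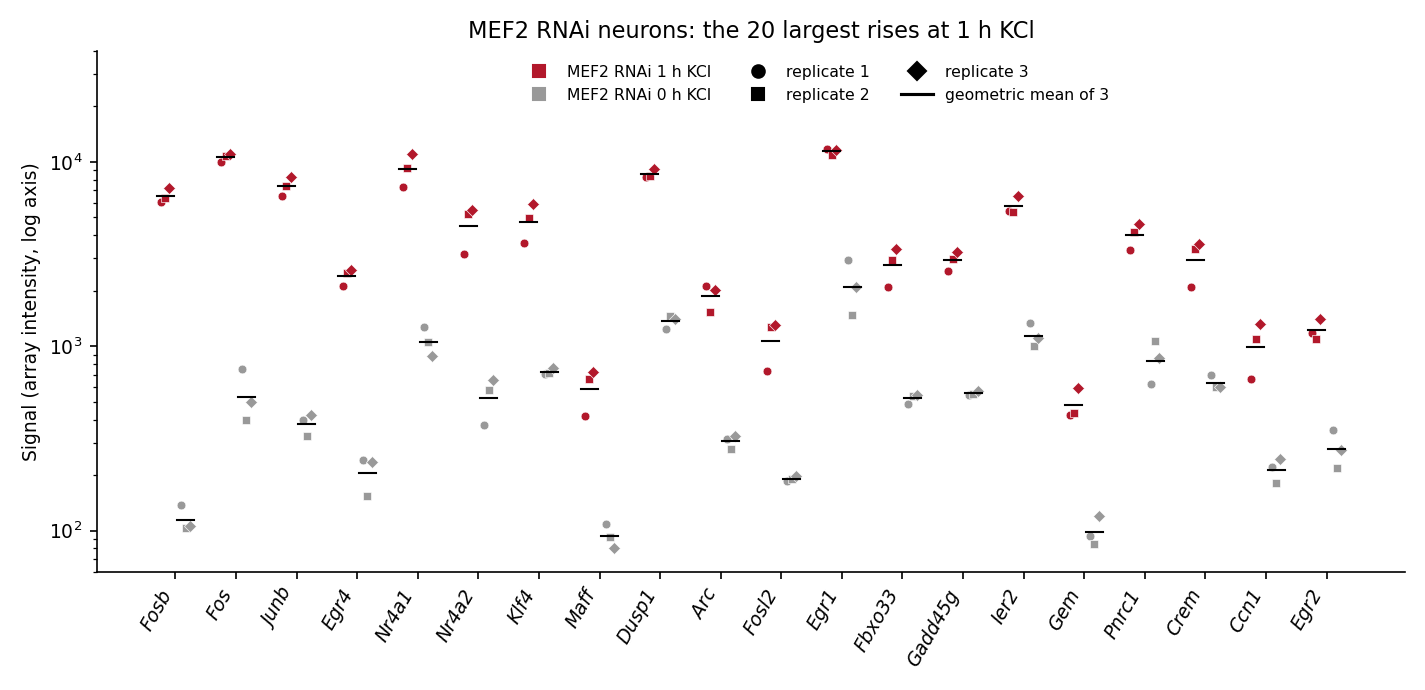
Signals (log axis) of the 20 genes with the largest rises, with 3 MEF2 RNAi arrays at 1 h of KCl (red) left of 3 MEF2 RNAi arrays at 0 h (grey) for each gene, symbols for the replicate number and a bar at the geometric mean. No gene's groups overlap, and RNAi 1 h replicate 1 (circle) is often the lowest of the red points, as for Fosl2, Nr4a2 and Crem.

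Among the other early transcription factors and regulators on the list, 15 of 29 rose and 4 fell (Id1, Id3, Bhlhe40 and Klf10), against 1.23% higher and 2.64% lower over all genes tested, with a median log2 change of 0.41. Klf4, a Krüppel-like factor, had 3608, 4929 and 5922 at 1 h, against 709, 715 and 761 at 0 h (log2 2.70, SE 0.14, adjusted p = 3.77e-09). Its relative Klf2 rose less and unevenly, with 371, 875 and 726 at 1 h and 288, 291 and 284 at 0 h (log2 1.10, adjusted p = 0.0235), and Klf9 rose by 0.83. Klf5 and Klf6, at -0.03 and 0.15, were not called, and Klf10 fell by 0.61 on the log2 scale (adjusted p = 0.0117). Ier2, a small nuclear protein induced by growth factors, had 5386, 5368 and 6514 at 1 h and 1329, 1002 and 1101 at 0 h (log2 2.33, adjusted p = 2.98e-09). Fbxo33, which encodes an F-box protein of ubiquitin ligases, had 2099.98, 2921 and 3375 at 1 h and 487, 535 and 543 at 0 h (log2 2.40, adjusted p = 5.35e-09).

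Crem, a CREB relative whose internal promoter gives the repressor ICER, had 2089.8, 3368 and 3596 at 1 h, against 699, 604 and 599.9 at 0 h (log2 2.21, SE 0.17, adjusted p = 8.19e-07). Its 5 probe sets that passed the filter on dim signals were all called, with changes of 0.60 to 2.88. The cyclic AMP-responsive kinase gene Sik1 rose by 1.35, the bZIP repressor Nfil3 by 1.21, the bZIP activator Cebpb by 0.91, Csrnp1 by 1.27 and Arid5a by 0.57. The antiproliferative genes Btg1 and Tob1 rose by 0.86 and 0.93. The mRNA decay factor gene Zfp36l1, at 0.41, was called with the replicate block alone (adjusted p = 0.0152, and 0.435 without it). For Btg1 the arrays of each group lay close together, with 11086, 11791 and 11702 at 1 h and 5940.2, 6881 and 6196 at 0 h (SE 0.06, adjusted p = 3.95e-07). Pnrc1, a nuclear receptor coactivator gene that is on no list, was among the 20 largest rises, with 3344, 4156 and 4598 at 1 h and 625, 1061 and 859 at 0 h (log2 2.27, adjusted p = 1.12e-07).

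Genes that dampen MAP kinase signalling rose in part. Dusp1 encodes a nuclear phosphatase that inactivates MAP kinases, and it had 8263, 8326 and 9119 at 1 h, against 1239.9, 1462 and 1413 at 0 h (log2 2.65, SE 0.10, adjusted p = 6.62e-11). A second Dusp1 probe set rose by 3.53. Dusp4, also dim at 0 h and at least 1.44-fold higher at 1 h, rose by a fitted 1.04 (adjusted p = 1.04e-04), Dusp5 by 1.02 (adjusted p = 1.51e-05) and Errfi1, an inhibitor of EGF receptors, by 1.05 (adjusted p = 3.73e-04). In all, 4 of the 13 feedback inhibitors measured rose and none fell, against 1.23% higher over all genes tested, with a median of 0.32, and with the replicate block 6 rose, Spry2 at 0.37 (adjusted p = 0.0168) and Spry4 at 0.45 (adjusted p = 0.0373) being added. Dusp6, a phosphatase for ERK in the cytoplasm, was not called at 0.17 (adjusted p = 0.5).

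Of the genes whose products act at synapses or on neuronal shape, 7 of 20 rose and none fell, against 1.23% higher over all genes tested, and the list's median of 0.23 shows that most members moved little. Arc, which promotes the removal of AMPA receptors from synapses, had 2130.4, 1526 and 2026 at 1 h, against 314, 277 and 327 at 0 h (log2 2.62, SE 0.12, adjusted p = 1.44e-09). Gem, a small GTPase that inhibits voltage-gated calcium channels, had 422, 436 and 590.1 at 1 h and 93.2, 84.1 and 120.1 at 0 h (fitted log2 2.28, adjusted p = 9.66e-05), at least 3.03-fold higher against the 40th percentile, under which its 0 h signals lay. Its relative Rem2 rose by 0.90 (adjusted p = 0.0146). The stress-inducible genes Gadd45g and Gadd45b, linked to DNA demethylation in neurons, rose by 2.39 (adjusted p = 7.94e-08) and 1.81 (adjusted p = 2.68e-06), while Gadd45a was not called at -0.31 (adjusted p = 0.262). Rgs2, a GTPase activator for G proteins, rose by 1.35 (adjusted p = 1.2e-04), and Nrn1, which encodes the membrane-anchored neuritin, by 0.63 (adjusted p = 0.0106). Plk2 at 0.62 and the protocadherin gene Pcdh8 at 0.57 were called with the replicate block alone (adjusted p = 0.00469 and 0.0222, and 0.052 and 0.0923 without it).

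Homer1, which encodes a postsynaptic scaffold, differed among its probe sets. The brightest, 1368318_at, by which the gene was tested, changed by -0.16 (adjusted p = 0.239). Probe set 1370997_at had 853, 1621 and 1215 at 1 h, against 223, 217 and 270.00 at 0 h, a log2 change of 2.33 (SE 0.27, adjusted p = 9.31e-05 where each probe set was tested on its own). The other 3 changed by -0.14 to 0.05 and were not called, so the rise was seen by 1 probe set of 5. Which transcripts each probe set reads was not tested.

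Of 20 secreted factors and neuropeptides measured, 3 rose and none fell, against 1.23% higher over all genes tested, and the median was 0.02. Ccn1, a matricellular protein and SRF target, had 666, 1091 and 1322 at 1 h, against 219.99, 180.3 and 245 at 0 h (log2 2.21, SE 0.22, adjusted p = 1.69e-05). Bdnf, the neurotrophin released by active neurons, had 390.5, 626 and 695 at 1 h and 286, 289 and 347 at 0 h (log2 0.86, SE 0.16, adjusted p = 0.00603). Its other probe set changed by 0.31 and was not called (adjusted p = 0.134), and the one by which Bdnf was tested lost its call when only the arrays of the groups compared entered the fit (adjusted p = 0.0867, range over its alternatives 3.84e-05 to 0.0867). Vgf, which encodes a precursor of secreted peptides, rose by 0.85 (adjusted p = 0.00981) and was not called without RNAi 0 h replicate 3 (adjusted p = 0.0597) or without RNAi 1 h replicate 3 (adjusted p = 0.0645), with a range over its alternatives of 0.000644 to 0.0645. The secretogranin gene Scg2 at 0.34 (adjusted p = 0.277) and the neuropeptide genes Npy at 0.04, Sst at 0.21, Penk at -0.18 and Tac1 at -0.43 were not called.

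Genes that the literature reports as MEF2 targets were read as a list. The list is not independent evidence of a direction, since some of these targets were drawn from experiments of this kind. Of 14 tested, 6 rose at 1 h with MEF2 reduced, with values of 3.11 for Nr4a1, 2.70 for Klf4, 2.62 for Arc, 1.10 for Klf2, 0.86 for Bdnf and 0.84 for Jun, and none fell, against 1.23% higher over all genes tested. The median was 0.40 in RNAi neurons and 0.44 in Control neurons, where the same number, 6, was called. Not called in RNAi neurons were Sgk1 at 0.57 (adjusted p = 0.0989, and 0.0246 with the replicate block), the AMPA receptor subunit gene Gria1 at -0.29, the protocadherin genes Pcdh10 at 0.23 and Pcdh17 at -0.10, Kcna1 at -0.24, Klf6, Homer1 and Adamts1. Homer1 counts here by its brightest probe set, while its probe set 1370997_at changed by 2.33 in RNAi neurons and by 3.10 in Control neurons. For 13 of the 14 the RNAi change was the smaller or more negative of the arms' changes, against 6112 of all 10933 genes tested, and 3 differed at an unadjusted p under 0.05 with none called. The 13 include Klf4 and Klf6, with differences of only -0.03 and -0.00015. This share varied between lists, with 9 of 10 SRF and actin genes and 12 of 15 voltage-gated channels, but 2 of 10 cholesterol genes and 3 of 11 AP-1 factors. No test was made on these shares.

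Sterol genes rose in part. Insig1, which retains the sterol sensor SCAP in the endoplasmic reticulum, had 5698, 6689 and 5632 at 1 h, against 3182, 3249.9 and 2073 at 0 h (log2 1.11, adjusted p = 4.43e-04). Idi1, an isomerase of isoprenoid synthesis, rose by 0.65 (adjusted p = 4.64e-04) and the desaturase gene Sc5d by 0.48 (adjusted p = 0.00633). Other Sc5d probe sets, at 0.14 and 0.24, were not called (adjusted p = 0.685 and 0.155). Sc5d was not called when only the arrays of the groups compared were fitted, at 0.0564, with a range over its alternatives of 0.00101 to 0.0564. These were 3 of 10 cholesterol genes measured, against 1.23% higher over all genes tested, none fell, and the other 7, such as Fdps at 0.05 and Lss at -0.03, had values of -0.09 (Nsdhl) to 0.22 (Sqle), with a list median of 0.13. Sqle, which encodes squalene epoxidase, was called with the replicate block (adjusted p = 0.0179).

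Of 14 genes of endoplasmic reticulum stress and heat shock, 4 rose and none fell, against 1.23% higher over all genes tested. Herpud1, which acts in the degradation of misfolded proteins, had 2246, 2189.7 and 2555 at 1 h and 1357, 1395 and 1590.04 at 0 h (log2 0.69, adjusted p = 2.59e-05). The stress factor Atf4 rose by 0.47 (adjusted p = 2.26e-04), the glutathione-degrading Chac1 by 0.46 (adjusted p = 0.0134) and the co-chaperone gene Dnajb1 by 0.27 (adjusted p = 0.0185). Chac1 was not called without RNAi 0 h replicate 2 or RNAi 1 h replicate 3, with a range over its alternatives of 0.000828 to 0.0778, and Dnajb1 was not called without RNAi 0 h replicate 1, RNAi 0 h replicate 3 or RNAi 1 h replicate 2, with a range of 0.00194 to 0.112. The chaperone genes Hspa5 at 0.05 and Hsp90b1 at -0.04, and the stress factor gene Ddit3 at 0.00, were not called, and the list's median was 0.07.

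SRF is known to drive early genes and the actin cytoskeleton. The SRF and actin list holds mainly cytoskeletal genes, and early genes such as Fos (4.32) and Egr1 (2.45) stand in other lists. The part of SRF in these changes was not tested. Of 10 SRF and actin genes measured 2 rose, Ccn1 and Srf itself, and none fell, against 1.23% higher over all genes tested, with a median of -0.01. Srf rose by 0.39 (adjusted p = 0.0323) and was not called without any one of 5 of the 6 RNAi arrays (range over its alternatives 0.00148 to 0.144). Its other probe set, at 0.14, was not called (adjusted p = 0.255). The actin gene Actg1 at -0.04, the vinculin gene Vcl at -0.26 and the tropomyosin gene Tpm1 at -0.14 were not called. None of the 7 measured genes of the MEF2 family and the class IIa deacetylases was called either, with a median of -0.08. Over all genes tested 1.23% were called higher and 2.64% lower.

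**Figure D3:**
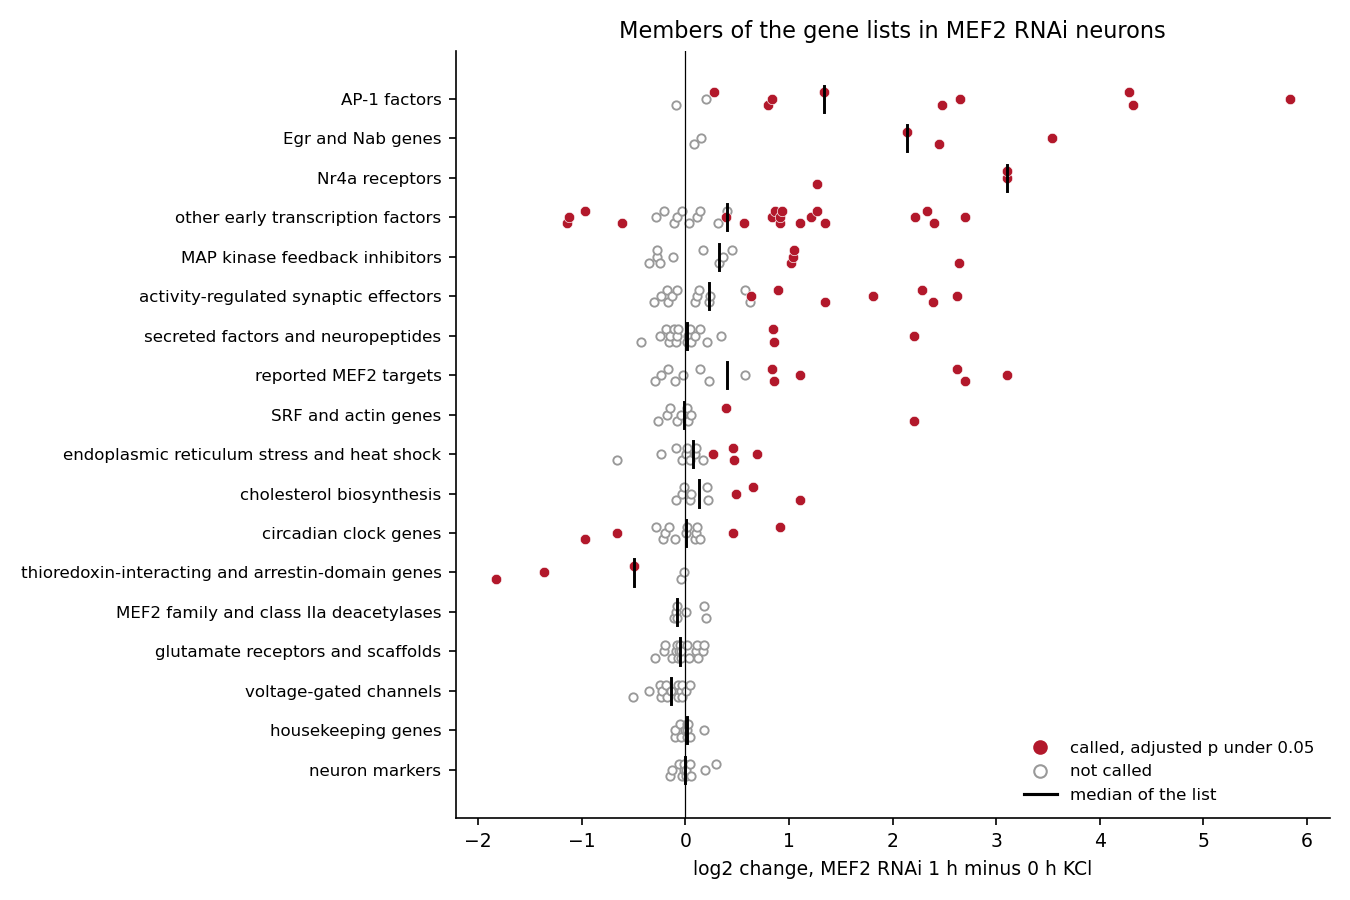
Each point is a tested gene of a list, placed by its log2 change in MEF2 RNAi neurons at 1 h against 0 h of KCl, filled where called and open where not, with a bar at the list's median. AP-1, Egr and Nr4a members lie farthest to the right, Txnip and Arrdc3 farthest to the left, and the channel, glutamate receptor, housekeeping and neuron marker lists hold no called member.

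Genes of 15 voltage-gated channels, 18 glutamate receptors and scaffolds, 11 housekeeping functions, 6 interferon responses and 9 p53 and apoptosis functions had 0 members called, with list medians of -0.15 to 0.01. Over all genes tested 1.23% were called higher and 2.64% lower, shares at which a short list often holds no call. With the replicate block the p53 target Sesn1 was called, at -0.49 (adjusted p = 0.0185), as were the neurofilament gene Nefl at 0.29 (adjusted p = 0.0242) and the replication clamp gene Pcna at 0.24 (adjusted p = 0.0482).

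The falls were led by Txnip, which binds thioredoxin and restrains glucose uptake. It had 1425, 733 and 799 at 1 h, against 3433, 3115 and 3512 at 0 h, a 3.56-fold fall (log2 -1.83, SE 0.24, adjusted p = 2.26e-04). Its relative Arrdc3, an arrestin-domain adaptor for receptor degradation, had 585, 506 and 509 at 1 h and 1950.2, 982 and 1353 at 0 h (log2 -1.37, SE 0.23, adjusted p = 0.002). The groups did not overlap for either gene, and replicate 1 at 1 h lay apart for Txnip. Arrdc4 fell by 0.50 on the log2 scale (adjusted p = 0.0475), a call lost without any one of the 6 RNAi arrays (adjusted p = 0.0509 to 0.208, range over its alternatives 0.00673 to 0.208), and Arrdc1 at -0.01 and Arrdc2 at -0.04 were not called. Slc2a3, the neuronal glucose transporter gene, was among the genes called higher, with 2406, 3673 and 3869 at 1 h and 1222, 1559.9 and 1812 at 0 h (log2 1.10, adjusted p = 9.38e-04).

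Id1 and Id3, inhibitors of basic helix-loop-helix factors and targets of BMP signalling, were lower at 1 h. Id1 had 491, 363 and 302 at 1 h and 902, 863 and 719 at 0 h (log2 -1.13, SE 0.21, adjusted p = 0.00548). Id3 had 454, 289 and 222 at 1 h and 795, 746 and 523 at 0 h (log2 -1.14, SE 0.30, adjusted p = 0.0462). For both genes and at both times replicate 1 was the highest array and replicate 3 the lowest, and with the replicate block the adjusted p was 8.24e-07 for Id1 and 1.3e-04 for Id3. Without one array, Id3 was not called in 5 of 6 cases, the exception being RNAi 1 h replicate 1 (adjusted p = 0.0162 to 0.219, range over its alternatives 0.00013 to 0.219). Id2 was not called at -0.08 (adjusted p = 0.868).

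Clock genes moved both ways, 2 up and 2 down of 15, against 1.23% higher and 2.64% lower over all genes tested. The repressor genes Bhlhe40 and Bhlhe41 were lower, Bhlhe40 with 117, 121 and 123 at 1 h, against 191, 223 and 307 at 0 h (fitted log2 -0.97, SE 0.18, adjusted p = 0.00576; at least 1.48-fold lower, as its 1 h signals lay under the 40th percentile), and Bhlhe41 by 0.66 on the log2 scale (adjusted p = 0.0109). Bhlhe41 was not called without RNAi 0 h replicate 3 (adjusted p = 0.0584) or RNAi 1 h replicate 2 (adjusted p = 0.0757), with a range over its alternatives of 0.000283 to 0.0757. Per1, which encodes a period protein and carries CRE-driven induction in other tissues, had 765, 985 and 928 at 1 h and 489, 449 and 475 at 0 h (log2 0.91, adjusted p = 5.44e-04). Cry2 rose by 0.46 (adjusted p = 0.0117), but not without RNAi 0 h replicate 1, RNAi 1 h replicate 2 or RNAi 1 h replicate 3 (range over its alternatives 0.00091 to 0.0911). Its other probe set, at 0.27, was not called (adjusted p = 0.112). The core genes Clock at -0.15 and Bmal1 at 0.09, and Per2 at -0.28, were not called.

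Zinc-finger genes, taken as those named Zfp or Znf with a number, were often lower. Of 189 tested, 42 were lower and 1 was higher, 22.2% lower against 2.3% of the 10744 other genes and 2.64% of all, and with the replicate block 64 were lower and 2 higher. The median change was -0.16, and 79.4% of them had a value below 0, against 60.9% of all genes tested. In Control neurons 37 of the 189 were lower and 1 was higher, with a median of -0.12, against 1.51% lower over all genes tested. This naming rule was added with the data in view, so its count is a description. Zfp763 had 286, 235 and 251 at 1 h, against 526, 565 and 558 at 0 h (log2 -1.10, adjusted p = 9.79e-05). Znf846 had 139, 120.4 and 104 at 1 h and 219, 251 and 277 at 0 h (log2 -1.05, adjusted p = 9.65e-05), and Zfp518a and Zfp672 had changes of -1.03 and -0.95, all with groups that did not overlap. The 1 h signals of Znf846 and Zfp518a lay under the 40th percentile, which bounds their falls at 1.55-fold and 1.74-fold or more. Rbak, a zinc-finger repressor gene outside the naming rule, changed by -1.03. The 1 member that rose was Zfp131, chosen for mention after its value was seen, with 602, 726 and 697 at 1 h and 427, 523 and 484 at 0 h (log2 0.50, adjusted p = 0.0161). Kin, which encodes a DNA- and RNA-binding nuclear protein, had 175, 108 and 118 at 1 h and 295, 344 and 349 at 0 h, the third largest fall (log2 -1.33, SE 0.16, adjusted p = 9.75e-05).

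The genes that moved in either direction were short. The median genomic span, from the RefSeq table of GRCr8, was 11.5 kb for the 135 genes called higher and 12.1 kb for the 289 called lower, against 23.9 kb over the 10924 tested genes with an entry, whose quartiles were 9.92 and 59.2 kb. In Control neurons the medians were 13.4 kb for genes called higher and 9.45 kb for those called lower. No test was made on span.

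To see which of these changes also occurred with control shRNAs, the Control arm was fitted in the same way on 6 other arrays. The arms share the estimate of the spread, the floor, filter and probe set choice set on all 18 arrays, and the replicate numbers. Control neurons had 130 genes higher at 1 h (1.19%) and 165 lower (1.51%), and with the replicate block 235 higher and 366 lower. Called higher in both arms were 98 genes, 72.6% of the RNAi list and 75.4% of the Control list, and called lower in both were 123, 42.6% of the RNAi list and 74.5% of the Control list, with 255 lower in both under the block. Direction was shared more widely than the calls. Of the 135 genes called higher in RNAi neurons 134 were above 0 in Control neurons, and of the 289 called lower 285 were below 0 there. Across all genes tested, which are not independent replicates, the changes of the arms had a Pearson correlation of 0.79 and a Spearman correlation of 0.45. For the 40 genes that rose at least 2-fold in Control neurons, chosen on arrays that the RNAi comparison does not use, all 40 were called in RNAi neurons, with a median change of 2.14 in RNAi neurons and 1.97 in Control neurons. Of these 40, 25 had the smaller value in RNAi neurons, but a choice on high values in one arm favours smaller values in the other. Of the 42 genes that rose at least 2-fold in RNAi neurons, 22 had the smaller value in Control neurons.

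The difference between the arms was tested by limma as an interaction of RNAi with KCl at 1 h. It called 0 genes (0%), with 363 at an unadjusted p under 0.05 and a smallest adjusted p of 1, and with the replicate block 0 genes again, with 730 unadjusted and a smallest adjusted p of 0.743. Without the block the median SE of the interaction was 0.13 on the log2 scale, and this sets what could be seen in that fit. The intervals here and below come from the same fit, which leaves the replicate numbers out. For Fos the RNAi change exceeded the Control change by 0.02 with a 95% interval of -1.02 to 1.06, so a difference of 2-fold either way lay at the edge of that interval. For Junb the interval was -0.01 to 0.64, for Dusp1 -0.55 to 0.03, for Klf4 -0.44 to 0.39, for Crem -0.54 to 0.51 and for Btg1 -0.03 to 0.36. A missed threshold does not show that the arms responded alike.

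The largest differences among called genes are given as values. Fosl2 changed by 2.48 in RNAi neurons and by 1.12 in Control neurons, a difference of 1.36 (95% interval 0.76 to 1.95, unadjusted p = 1.94e-04, adjusted p = 1). At 1 h it had 736, 1278 and 1303 in RNAi and 595, 926 and 942 in Control neurons, which overlap. At 0 h it had 186, 190.1 and 199 in RNAi and 343, 392 and 374 in Control neurons, with every RNAi array below every Control array. Without RNAi 1 h replicate 1, its lowest array, the interaction of Fosl2 was called, the 1 gene so called in that fit (difference 1.63, adjusted p = 0.0311). These values come from the brightest Fosl2 probe set. A second one changed by 1.29 in RNAi neurons and by 0.73 in Control neurons, so the size of the difference depended on the probe set. Fosb differed by 0.77 (95% interval 0.21 to 1.34), with Control signals of 4922, 6632 and 7863 at 1 h and 213, 240.4 and 135 at 0 h that overlapped the RNAi signals given above at both times.

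Smaller rises in RNAi neurons were seen in Ccn1, with 2.21 against 3.40 in Control neurons (95% interval of the difference -1.87 to -0.52), in Egr4 with 3.54 against 4.33 (interval -1.30 to -0.28) and in Egr2 with 2.14 against 2.94 (interval -1.53 to -0.07). Ccn1 reached 666, 1091 and 1322 in RNAi neurons at 1 h and 1538, 2013 and 2244 in Control neurons, without overlap. Arc differed by -0.40 (interval -0.76 to -0.03), Jun by -0.47 (interval -0.77 to -0.16) and Dusp5 by -0.48 (interval -0.78 to -0.17). Zfp62 fell further in RNAi neurons, with -0.79 against -0.08 (interval -1.21 to -0.19), and its own fall, at least 1.48-fold with 1 h signals under the 40th percentile (adjusted p = 0.0134), was not called without RNAi 1 h replicate 2 or 3 or without RNAi 0 h replicate 2 or 3 (range over its alternatives 9.69e-05 to 0.0698). None of these differences was called (adjusted p = 1 for each). A second Zfp62 probe set changed by -0.18 in RNAi neurons and by -0.14 in Control neurons. Neither change was called by limma where each probe set was tested on its own (adjusted p = 0.263 and 0.536).

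A few genes were chosen for mention after their values were seen. Of the 42 genes that rose at least 2-fold in RNAi neurons, 38 were called in Control neurons, and the other 4 were Insig1 with 1.11 against 0.61 in Control neurons, Slc2a3 with 1.10 against 0.40, Nfkbid, a nuclear inhibitor of NF-κB, with 1.04 against 0.37, and the cytokine gene Tslp, dim at 0 h and at least 1.25-fold higher in RNAi neurons, with 1.19 against 0.64. All 4 were above 0 in Control neurons, where Insig1 (adjusted p = 0.00141), Slc2a3 (adjusted p = 0.0358) and Tslp (adjusted p = 0.0498) were called with the replicate block, and their interactions were not called. Tspyl2 was the 1 gene called higher in RNAi neurons with a value below 0 in Control neurons, 0.34 against -0.10. Bivm, Dipk2a, Fbxo22 and Rnf2 were called lower in RNAi neurons, at -0.46, -0.54, -0.34 and -0.26, with values just above 0 in Control neurons.

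**Figure D4:**
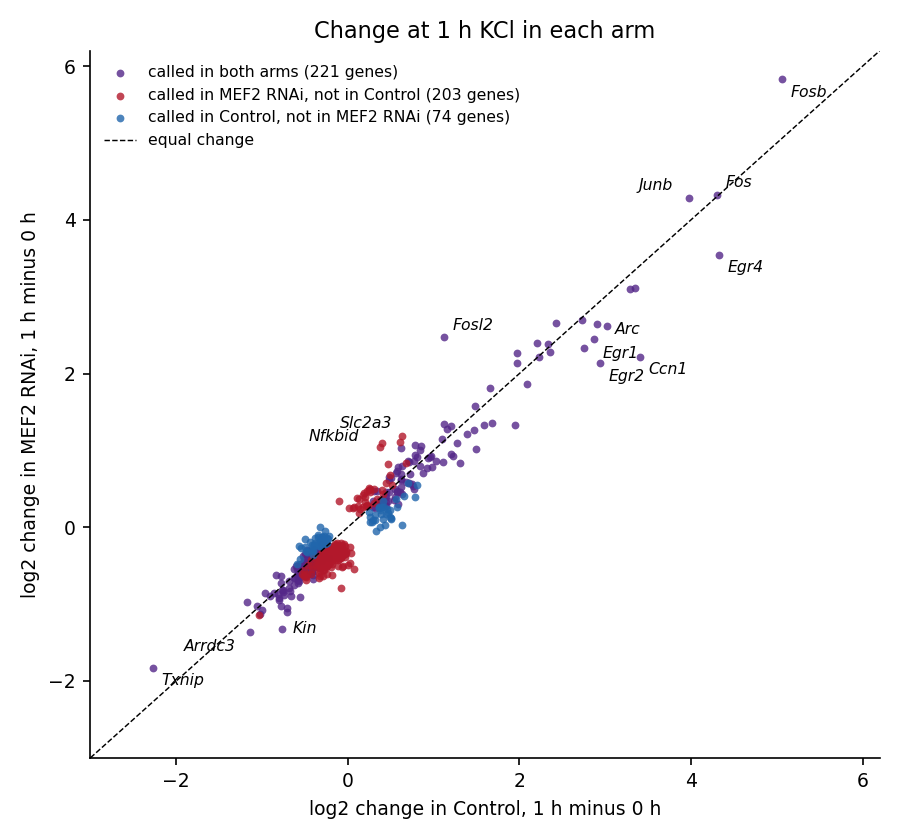
Each point is a gene called in at least 1 arm, with its log2 change at 1 h in MEF2 RNAi neurons on the y axis and in Control neurons on the x axis, and a dashed line of equal change. The points follow the line, with Fosl2 above it at 2.48 against 1.12, and Ccn1 below it at 2.21 against 3.40.

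The MEF2 RNAi arrays at 6 h show what followed, in comparisons that share the 0 h or the 1 h arrays with the one above, so values are set side by side. At 6 h, 1610 genes were higher (14.7%) and 2766 lower (25.3%) than at 0 h, and against 1 h 1520 were higher (13.9%) and 1900 lower (17.4%). The 135 genes called higher at 1 h split at 6 h into 115 that were called higher, 19 that were not called and 1, Zbtb11, that was lower. Against 1 h, 43 of the 135 were lower at 6 h and 32 higher. Arc had 282, 308 and 329 at 6 h, back among its 0 h signals, with log2 changes of 2.62 at 1 h and 0.00 at 6 h against 0 h. Egr1, with 2.45 at 1 h and 0.15 at 6 h, was likewise not called against 0 h at 6 h (adjusted p = 0.716).

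Other early genes were still high at 6 h. Fosl2 had 2.48 at 1 h and 2.47 at 6 h, Crem 2.21 and 2.57, Gem 2.28 and 2.74, and Fbxo33 2.40 and 2.06, and none of these 4 was called between 6 h and 1 h. Bdnf had 0.86 at 1 h and 2.64 at 6 h, with 1726, 1806 and 2219 on the 6 h arrays. Fosb at 5.84 and 4.08, Junb at 4.28 and 2.86, and Nr4a1 at 3.11 and 1.73 were called lower at 6 h than at 1 h and higher than at 0 h. Among the 289 genes lower at 1 h, 211 were also lower at 6 h, 70 were not called and 8 were higher. Txnip had -1.83 at 1 h and -1.80 at 6 h, and Arrdc3 -1.37 and -1.84. Id1, with 1438, 929.9 and 1045 at 6 h, went the other way (-1.13 at 1 h, 0.44 at 6 h), as did Bhlhe40 (-0.97 and 0.42), and both were called higher at 6 h than at 1 h (adjusted p = 4.51e-05 and 3.62e-05).

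**Figure D5:**
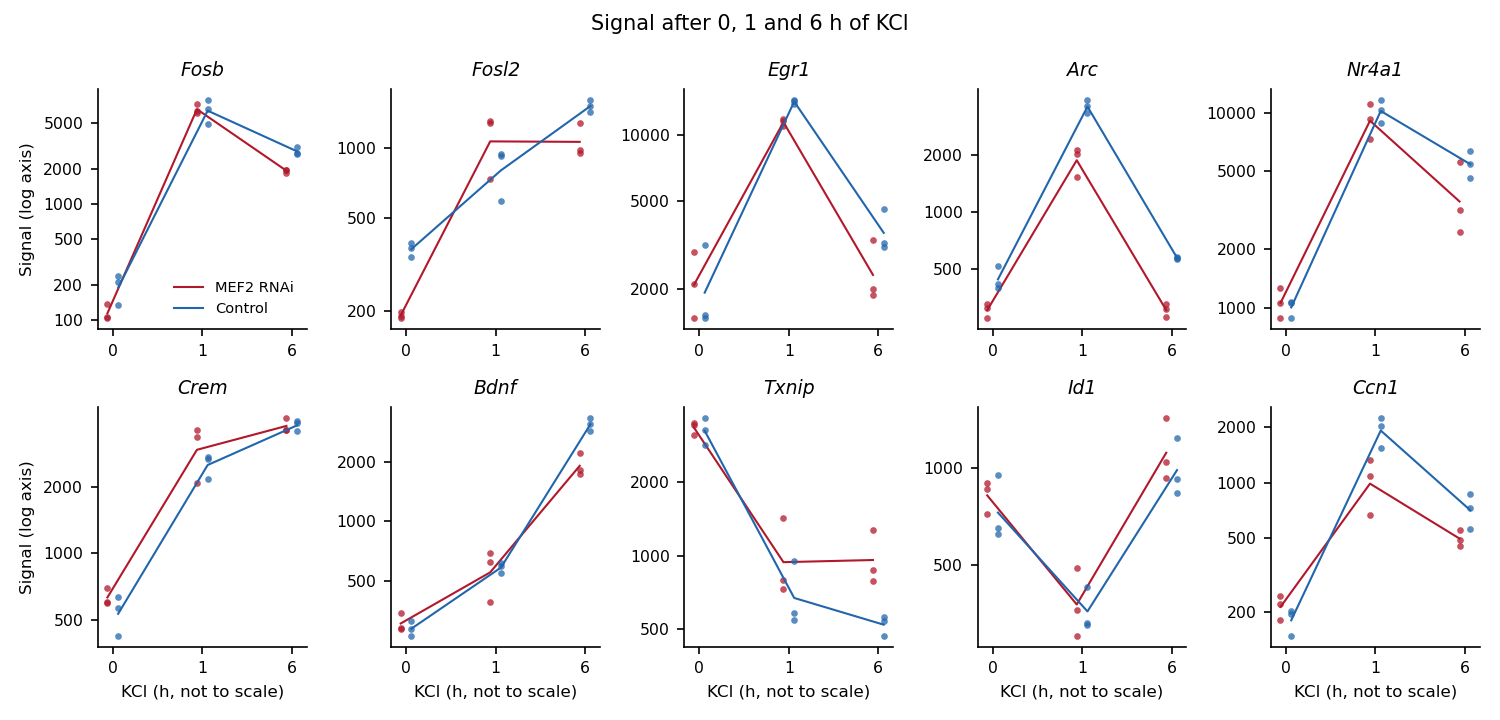
Signals (log axis) of 10 genes after 0, 1 and 6 h of KCl (spacing not to scale), with 3 arrays per group as points and lines through geometric means, for MEF2 RNAi (red) and Control (blue). Arc and Egr1 peak at 1 h in both arms, Bdnf and Crem are highest at 6 h, Txnip stays low after 1 h, and Id1 dips at 1 h.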

How the data were processed

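RNA of dissociated rat hippocampal cultures was hybridised to 18 Affymetrix arrays, 3 for each of 6 groups. Total RNA was purified on columns and labelled as biotin cRNA, per the labels' protocols. The deposited value table holds intensity on a linear scale for 31099 probe sets, and the normalization and summarisation behind it are not given in the sources used here. Of these probe sets 20832 carry 1 gene symbol, 436 several and 9831 none in the platform annotation, and the table's columns were all mapped to samples by their accessions.

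Signals under 72.6, the 20th percentile, were raised to that floor before log2 was taken. Each of 14218 genes was read by its brightest probe set over all arrays, and 10933 genes above their array's 40th percentile on at least 3 arrays were tested. No further normalization was applied. limma 3.58.1 in R 4.3.3 fitted all 6 groups, with 12 residual degrees of freedom, and Benjamini-Hochberg adjustment ran over all genes tested. The code was tested on simulated data. The number of arrays, not a read depth, limits the precision.

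Replicate numbers come from the labels. After group means were removed, arrays of the same number correlated across genes at 0.64, 0.554 and 0.652 between MEF2 RNAi 1 h and 0 h, against -0.505 to -0.0765 for unlike numbers, so the numbers were taken to pair the samples, and fits with them as a block are given beside the results they move. Alternatives changed the floor, filter, normalization, probe set rule, arrays fitted, variance trend, weights and block, and left out each array. The genes named are the 20 largest rises and 12 largest falls, those with the largest differences between the arms, fixed early genes, and up to 4 members of each of 25 gene lists with the smallest adjusted p, apart from list members given with their values and genes said to be chosen after their values were seen. Members and lists were chosen with earlier results of these data known. Promoter windows and genomic spans come from RefSeq tables of GRCr8.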

Additional observations from a re-analysis of the deposited data

Results flagged for a closer look

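For 6 of the genes named, and for 435 of the 10933 genes tested (3.98%), all 3 replicate pairs of the MEF2 RNAi arm moved one way at 1 h and all 3 pairs of the Control arm the other way. Of the 6, Tspyl2, Fbxo22 and Cbx8 were among genes picked for values of opposite sign in the arms, so the count is a description. Tspyl2 had a log2 change of 0.34 in RNAi neurons and -0.10 in Control neurons, and Fbxo22 had -0.34 in RNAi neurons and 0.0417 in Control neurons. Cbx8, which encodes a Polycomb protein, had -0.0544 in RNAi neurons and 0.32 in Control neurons, where it was called. Mef2a, a targeted gene, had -0.0757 in RNAi neurons and 0.23 in Control neurons, and limma called neither change (adjusted p = 0.761 in RNAi and 0.319 in Control neurons). Tpm1 had -0.14 in RNAi neurons and 0.16 in Control neurons, and the growth cone gene Gap43 had -0.0576 in RNAi neurons and 0.0718 in Control neurons. The limma test of the difference between the arms called none of the 6 (adjusted p = 1 for each).

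Probe sets without a single gene symbol stood outside the comparisons. Tested on their own in MEF2 RNAi neurons at 1 h against 0 h, 48 of 4811 were called higher and 117 lower. These shares lie near the 1.23% higher and 2.64% lower over the genes tested. The largest rises were those of 1392108_at at 2.92 and 1392791_at at 2.60 on the log2 scale, and the largest falls those of 1371595_at at -1.90 and 1374786_at at -1.01. Their genes are not named here.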

How the results depend on the processing

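Single genes were followed under the alternatives for the 114 named genes. Of the 58 called at 1 h in MEF2 RNAi neurons none changed direction, 46 were called under every alternative, and 1045 of 1102 values kept direction and side of the threshold. With only the arrays of the groups compared, which leaves fewer degrees of freedom, 87 genes were higher and 175 lower in RNAi neurons, 76 higher and 49 lower in Control neurons, and 60 higher and 34 lower in both. With the replicate block, 216 were higher and 688 lower in RNAi neurons, 235 higher and 366 lower in Control neurons, and 255 lower in both. The block added calls and removed none of the 424 in RNAi neurons, and it changed no call of a named gene in RNAi neurons beyond those given with it. With array weights, 324 were higher and 885 lower in RNAi neurons, 200 higher and 288 lower in Control neurons, and 238 lower in both. Leaving out each of an arm's own 6 arrays in turn gave 84 to 141 higher and 136 to 250 lower in RNAi neurons, and 100 to 144 higher and 88 to 160 lower in Control neurons. Leaving out each of the 12 gave 70 to 102 higher and 67 to 129 lower in both, and the 6 Control arrays, through the shared spread, moved the RNAi counts to 129 to 146 higher and 248 to 321 lower. In the Control arm the falls numbered 95 when replicate 3 at 1 h was left out, and 98 and 88 when replicates 1 and 2 at 0 h were, and the falls in both arms 67, 75 and 75 for the same arrays. The interaction called 0 to 1 genes, the 1 being Fosl2 without RNAi 1 h replicate 1. Causes of these shifts were not tested. No called gene had its dim group at the floor on all 3 arrays.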

Other observations

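Other genes that rose at least 2-fold in MEF2 RNAi neurons at 1 h belong to no list above and were chosen for mention after their values were seen. Ppp1r15a, which directs a phosphatase to the translation factor eIF2α, had 1991, 2589 and 3118 at 1 h, against 568, 679 and 865 at 0 h (log2 1.86 in RNAi neurons and 2.09 in Control neurons). Tiparp, an ADP-ribosyltransferase gene of the aryl hydrocarbon receptor pathway, had 4099, 5829 and 6470.4 at 1 h and 1321, 1113 and 1243 at 0 h (log2 2.13 in RNAi neurons and 1.97 in Control neurons). Regulators of splicing were among them, with Clk1, a kinase of splicing factors, at 1.33 in RNAi and 1.59 in Control neurons, and the cyclin gene Ccnl1 at 1.15 in RNAi and 1.09 in Control neurons. Irs2, an adaptor of insulin receptors, rose by 1.07 in RNAi and 0.78 in Control neurons. Groups of arrays at 1 h and 0 h did not overlap for any of these genes in RNAi neurons.

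The 8 genes called lower at 1 h and higher at 6 h in RNAi neurons, again chosen after their values were seen, were Gpr37, Imp3, Kti12, Myadm, Pcdh20, Rnf113a1, Zc3h10 and Znf48. The protocadherin gene Pcdh20 had 417, 484 and 448 at 1 h, against 634, 711 and 747 at 0 h, and 1002, 1179 and 1119 at 6 h, with log2 changes against 0 h of -0.63 at 1 h and 0.66 at 6 h.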
